A study of Nothobranchius furzeri with 8 samples.

Results

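The genes described here are lamc1 (Nfu_g_1_012946), col4a1 (Nfu_g_1_005913) and fras1 (Nfu_g_1_017309), 3 of the 23546 genes counted in the brain of the turquoise killifish Nothobranchius furzeri. They were chosen by identifier as basement membrane genes whose difference between sponge-29 and wild-type fish was already known, so every comparison of their levels between the groups is a description without a test. All 3 were among the 19536 genes kept by the filter on low counts. RNA-seq had been performed on whole brains of 4 sponge-29 and 4 wild-type fish, all 12 weeks old. Sponge-29 fish (libraries 46 to 49) were F1 transgenics of the labelled genotype kif5a::miR-29sponge, in which a zebrafish kif5aa promoter, active in neurons, drives eGFP followed by repeated binding sites that scavenge the microRNA miR-29. Wild-type fish (libraries 42 to 45), labelled MZM-04/10p, were controls without the transgene, and the study kept all its fish on the MZM-04/10 strain. The sponge is expressed in neurons, and the libraries hold the RNA of all cells of the brain.

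A basement membrane is a thin sheet of extracellular matrix that lies under epithelia and endothelia. In the brain it surrounds blood vessels and lines the surface below the meninges. Laminin trimers and collagen IV form its networks, perlecan (hspg2) links them to other components, and proteins of the Fraser complex anchor embryonic epithelia to the tissue beneath. lamc1 encodes the laminin gamma chain found in most laminin trimers, col4a1 encodes a chain of the main collagen IV trimer, and fras1 encodes a large membrane-anchored protein of the Fraser complex. In mammals, mRNAs of matrix proteins, collagens above all, are among the best-known targets of miR-29.

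Sequencing gave 18014090 to 21081878 counts on genes per sponge-29 library and 21665735 to 24902251 per wild-type library, so that depth did not overlap between the groups. Library numbers were consecutive within each group and the labels name no batch or date, so an effect of depth or of library preparation cannot be told apart from the group. Libraries of one group differed by more than counting noise (lowest chi-square per degree of freedom 10.1), and each was used as a separate fish. With the quasi-likelihood test of edgeR and p-values adjusted by Benjamini-Hochberg, 2341 of the genes tested were differentially expressed (DEGs) at a threshold of 0.05, 1201 higher and 1140 lower in sponge-29.

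All 3 basement membrane genes were lower in sponge-29 brains, and in each of them every sponge-29 fish lay below every wild-type fish. Levels are given as CPM, counts scaled to a common library size after adjustment by TMM (trimmed mean of M-values), with 4 fish per group. The share of all genes tested with every sponge-29 fish below every wild-type fish was 10.5%. It was higher among genes of similar length, whose range is defined further below. There it was 24.1% for lamc1, 19.2% for col4a1 and 34.3% for fras1. The 3 genes were also among the calls of edgeR, where 12.0% of the genes tested were called in either direction and 5.84% were called lower. These counts follow from the choice of the genes, and nothing is read from them. Raw counts of the 3 genes were between 466 and 2485 per library, for a counting error of 2.01% to 4.63%, which is well below the spread between fish. In whole-brain RNA, fewer cells that express a gene and less RNA per cell cannot be told apart.

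lamc1 was present at 61.5, 61.4, 66.9 and 54.1 CPM in the sponge-29 fish of libraries 46 to 49, against 82.9, 72.0, 99.0 and 94.7 CPM in the wild-type fish of libraries 42 to 45. Libraries 46, 47 and 48 were close together and library 49 was the lowest, whereas the wild-type fish were more widely spread. The means were 61.0 ± 5.28 CPM in sponge-29 brains and 87.1 ± 12.2 CPM in wild-type brains (SD, n = 4 each). The log2 fold change was -0.51 (SE 0.11), a level 30.0% lower in sponge-29. The highest sponge-29 fish (library 48) was 7.05% below the lowest wild-type fish (library 43).

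col4a1 was present at 41.2, 50.9, 49.9 and 58.9 CPM in the sponge-29 fish of libraries 46 to 49, against 65.1, 60.9, 94.5 and 74.9 CPM in the wild-type fish of libraries 42 to 45. Library 46 was the lowest sponge-29 fish and library 49 the highest, and the wild-type fish of library 44 stood above the other wild-type fish. The means were 50.2 ± 7.21 CPM in sponge-29 brains and 73.8 ± 14.9 CPM in wild-type brains (SD, n = 4 each), with a log2 fold change of -0.56 (SE 0.15), a level 32.0% lower in sponge-29. This gene had the narrowest gap of the 3, as the highest sponge-29 fish was only 3.43% below the lowest wild-type fish.

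fras1 was present at 35.7, 30.7, 38.2 and 26.4 CPM in the sponge-29 fish of libraries 46 to 49, against 54.1, 44.7, 54.7 and 52.1 CPM in the wild-type fish of libraries 42 to 45. Libraries 47 and 49 were the lowest sponge-29 fish, and library 43 was set apart below the other wild-type fish. The means were 32.7 ± 5.23 CPM in sponge-29 brains and 51.4 ± 4.58 CPM in wild-type brains (SD, n = 4 each), with a log2 fold change of -0.65 (SE 0.12), a level 36.3% lower in sponge-29. The highest sponge-29 fish was 14.6% below the lowest wild-type fish, the widest gap of the 3 genes.

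**Figure D1:**
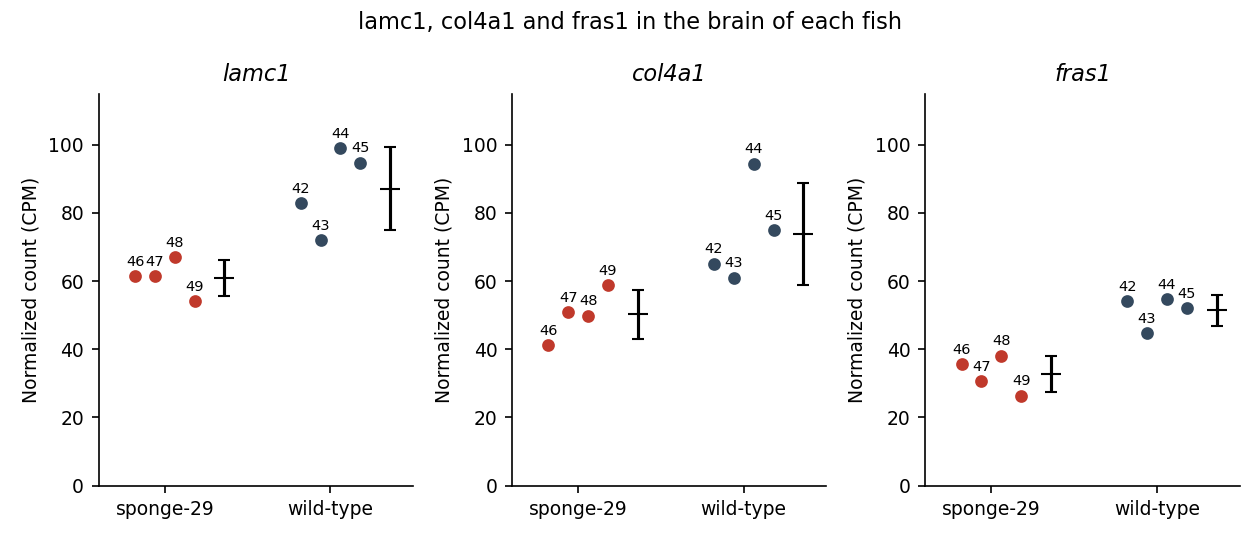
Normalized counts (CPM, linear axis from 0) of lamc1, col4a1 and fras1 in 4 sponge-29 and 4 wild-type brains. Points are single fish labelled with their library number, and the bars beside them give the mean and SD. Each sponge-29 fish lies below each wild-type fish in each panel, with the narrowest gap in col4a1 (58.9 against 60.9 CPM).

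The 3 genes did not follow one order of fish. The wild-type fish of library 43 was the lowest of its group and that of library 44 the highest for all 3 genes. Among sponge-29 fish, library 49 was the lowest for lamc1 and fras1 and the highest for col4a1. The spread within groups, as the SD of log2 CPM about the group means, was 0.17 for lamc1, 0.25 for col4a1 and 0.19 for fras1. On the linear scale the coefficient of variation of fras1 was 16.0% in sponge-29 and 8.92% in wild-type, while that of lamc1 was 8.65% in sponge-29 and 14.0% in wild-type.

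Levels were compared between the genes per length, as RPKM (CPM divided by gene length in kilobases, with library totals in place of TMM). lamc1 and col4a1 had nearly the same level in both groups, and fras1 was lower. lamc1 averaged 7.26 ± 0.697 RPKM in sponge-29 and 10.6 ± 1.42 RPKM in wild-type, col4a1 7.09 ± 1.01 RPKM in sponge-29 and 10.7 ± 2.12 RPKM in wild-type, and fras1 2.44 ± 0.405 RPKM in sponge-29 and 3.92 ± 0.344 RPKM in wild-type (SD, n = 4 each). The order of lamc1 and col4a1 therefore lay within the spread between fish, while fras1 was below both in every fish. The median gene tested was at 7.01 RPKM in sponge-29 and 7.33 RPKM in wild-type. In the ranking of the genes tested by RPKM, lamc1 was at percentile 51.1 in sponge-29 and 61.3 in wild-type, col4a1 at 50.4 in sponge-29 and 61.5 in wild-type, and fras1 at 25.5 in sponge-29 and 33.7 in wild-type.

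The proportions of the 3 transcripts overlapped between the groups. The RPKM ratio of lamc1 to col4a1 was 1.04 ± 0.205 in sponge-29 and 1.00 ± 0.0883 in wild-type, and that of lamc1 to fras1 was 3.0 ± 0.264 in sponge-29 and 2.70 ± 0.228 in wild-type (SD, n = 4 each). The ratio of col4a1 to fras1 varied most, between 2.19 and 4.21 in sponge-29 fish and between 2.28 and 3.27 in wild-type fish. Both extremes of this ratio among sponge-29 fish came from libraries 46 and 49, the fish in which col4a1 was lowest and highest. The largest mean log2 difference between the groups was that of lamc1 over fras1, at 0.15. Its SD on the log2 scale was 0.13 in sponge-29 and 0.12 in wild-type. Whether the proportions differed was not tested.

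All 3 transcripts are long. Gene length, which follows from counts divided by RPKM, was 8307 bases for lamc1, 6997 bases for col4a1 and 13244 bases for fras1, longer than 94.1%, 90.0% and 99.2% of the genes tested. Long genes as a class were lower in sponge-29. When the genes tested were divided into 10 bins of increasing length, the median log2 fold change was 0.10 in the bin of shortest genes (median length 444 bases) and -0.17 in the bin of longest genes (median length 8677.5 bases), and the share of genes called was 9.0% in the shortest bin and 21.7% in the longest. The mean gene length weighted by counts was 4558 to 4828 bases in sponge-29 libraries and 4957 to 5020 bases in wild-type libraries, without overlap. Gene length thus moved with the group, and the values of genes of like length are given beside those of the 3 genes for this reason.

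**Figure D2:**
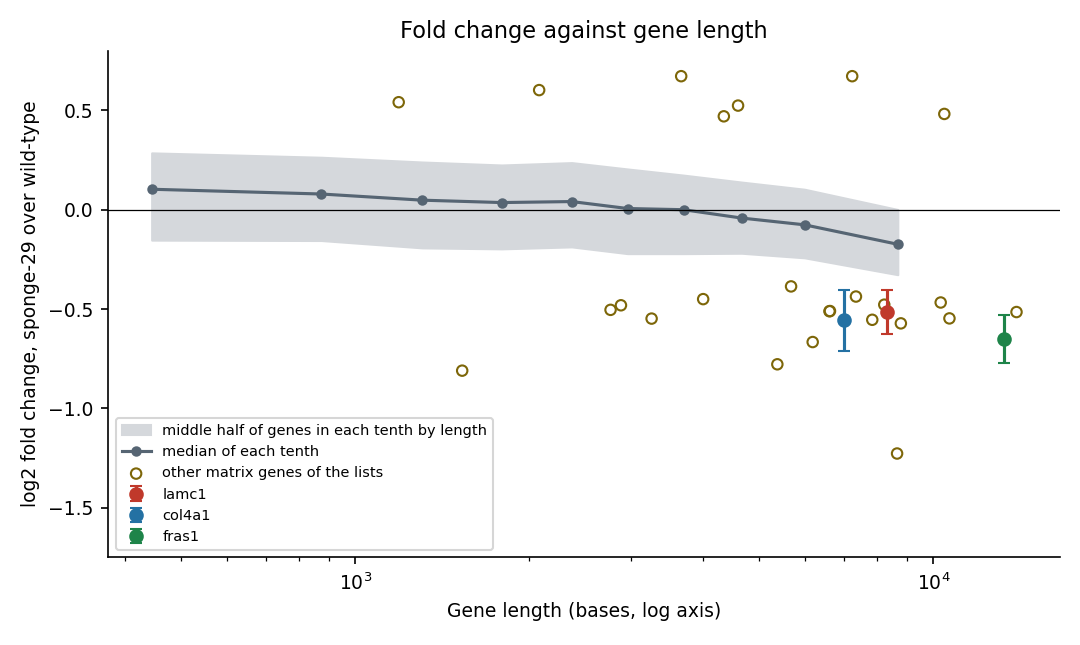
log2 fold change (sponge-29 over wild-type) against gene length in bases (log axis). The grey line joins the medians of 10 bins of genes by length and the band spans their quartiles; open circles are the other matrix genes of the lists except ctgfa (2.79, off the scale), and filled points with standard errors are lamc1, col4a1 and fras1. The line falls to -0.17 in the longest bin, drawn at its median length of 8677.5 bases, where the band ends. lamc1 and col4a1 lie below the band at -0.51 and -0.56, and fras1 lies to the right of its end at -0.65.

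Among genes of like length, from 0.8 to 1.2 times their own, the 3 genes ranked near the low end. As they were chosen with their difference known, their ranks among other genes follow in part from that choice, and nothing is read from them. For lamc1, 1699 genes of like length had a median log2 fold change of -0.15, with 72.6% of them lower in sponge-29, and 98 (5.77%) had a more negative value than lamc1. For col4a1, 2339 genes of like length had a median of -0.10, with 65.2% lower in sponge-29, and 113 (4.83%) were more negative. For fras1, 376 genes of like length had a median of -0.24, with 80.3% lower in sponge-29, and 13 (3.46%) were more negative. The median over all genes tested was -0.01, with 50.7% lower in sponge-29.

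The difference between a gene and the median of its like-length genes was -0.37 for lamc1, -0.45 for col4a1 and -0.41 for fras1 on the log2 scale. fras1, the most negative of the 3 before this subtraction, lay between the other 2 after it, while lamc1 and col4a1 lay further apart than before. The log2 fold changes had standard errors of 0.11, 0.15 and 0.12 for lamc1, col4a1 and fras1, so no order of the genes is read from these values. Where the comparison was narrowed to genes that were also within 1 log2 unit of the same level, 33 of 815 genes were more negative than lamc1, 27 of 1089 were more negative than col4a1 and 1 of 101 was more negative than fras1. Among genes of like length, 15.5% for lamc1, 12.4% for col4a1 and 27.4% for fras1 were called lower, against 5.84% of all genes tested.

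The same subtraction was made in each fish, with log2 CPM set relative to the wild-type mean. lamc1 was -0.41, -0.31, -0.29 and -0.48 from its like-length median in the sponge-29 fish of libraries 46 to 49, against -0.06, -0.26, 0.21 and 0.11 in the wild-type fish of libraries 42 to 45. fras1 was -0.37, -0.42, -0.27 and -0.64 from its median in the sponge-29 fish, against 0.11, -0.19, 0.10 and -0.02 in the wild-type fish in the same order. For both genes all 4 sponge-29 fish were below the wild-type fish, although sponge-29 library 48 was within 0.1 of wild-type library 43. The share of other genes separated in this way after the subtraction was not computed. As the genes were chosen with their difference known, nothing is read from this separation. col4a1 was -0.76, -0.39, -0.48 and -0.17 from its median in the sponge-29 fish, against -0.15, -0.25, 0.39 and 0.02 in the wild-type fish. For col4a1 the groups overlapped, since library 49 lay above the lowest wild-type fish and only 3 of 4 sponge-29 fish were below all wild-type fish.

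**Figure D3:**
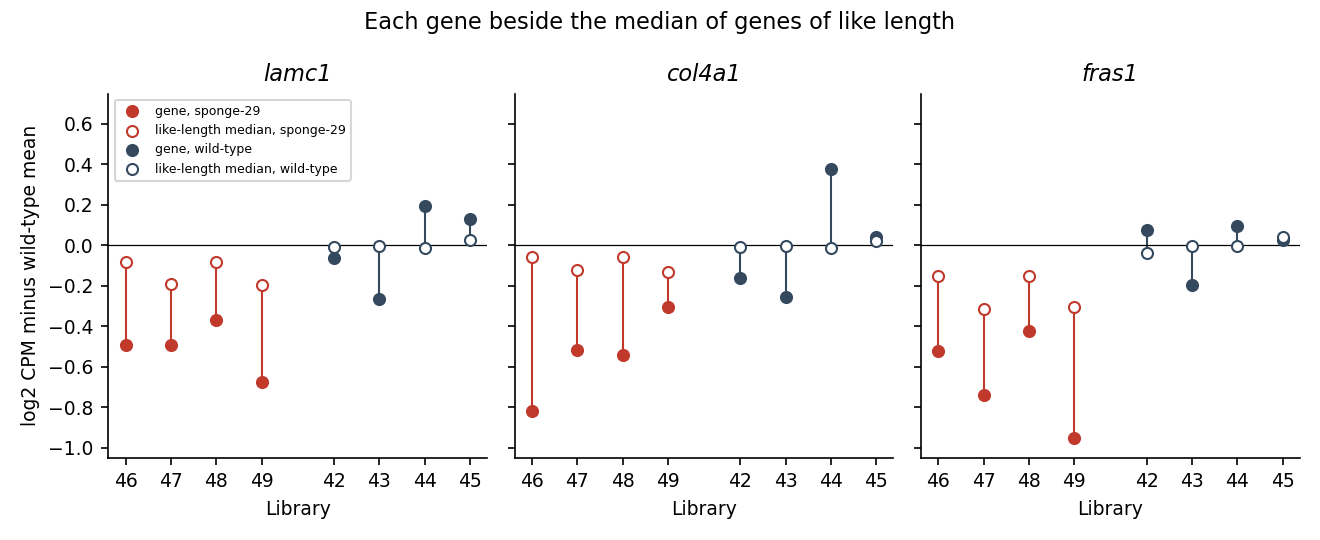
log2 CPM relative to the wild-type mean for each library, sponge-29 at the left of each panel and wild-type at the right. Filled points are the gene and open points the median of its genes of like length in the same library, joined by a line. The filled points of sponge-29 fish lie below their open points by 0.17 to 0.76, and the shortest of these lines is that of col4a1 in library 49.

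Whether the 3 genes passed the threshold depended on single fish and on how length was handled. Leaving out each of the 8 libraries in turn gave log2 fold changes between -0.60 and -0.45 for lamc1, between -0.64 and -0.42 for col4a1 and between -0.74 and -0.56 for fras1. lamc1 passed the threshold in 4 of these 8 fits, col4a1 in 1 and fras1 in 6. None of the 3 genes passed without wild-type library 45 or without sponge-29 library 47. In these fits the calls among all genes were 427 and 441, against 2341 with all fish, so the loss was not particular to the 3 genes. lamc1 was also lost without wild-type library 44 or sponge-29 library 49, where 886 and 990 genes were called. col4a1 passed in the fit without wild-type library 43 alone. With the length trend of each library removed, the log2 fold changes were -0.40, -0.46 and -0.45 for lamc1, col4a1 and fras1, and fras1 was past the threshold while the other 2 genes were not (2.85% of all genes tested were called lower in this fit). With TMM computed on long genes, which moved the median of all genes by 0.13 on the log2 scale, they were -0.39, -0.43 and -0.53, and col4a1 was no longer past the threshold (3.17% called lower).

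**Figure D4:**
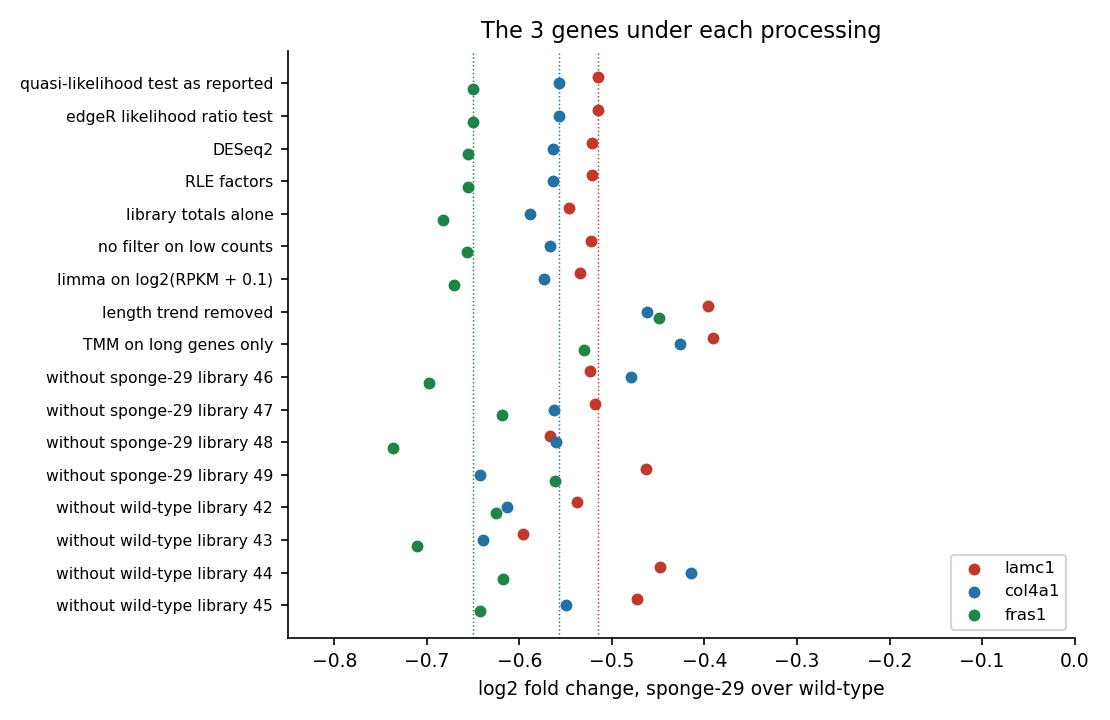
log2 fold change (sponge-29 over wild-type) of lamc1, col4a1 and fras1 as reported (top, dotted lines), under 8 other choices of processing and without each library. All values are below 0, between -0.74 and -0.39; those nearest 0 for lamc1 and fras1 came from the 2 corrections for length, and that for col4a1 from leaving out wild-type library 44.

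The rest of the matrix was followed through 26 other identifiers in 6 lists of matrix genes. Of these, 18 were lower and 8 higher in sponge-29, with a median log2 fold change of -0.48 (median over all genes tested -0.01). By edgeR's quasi-likelihood test adjusted over all genes tested, 14 fell, 6 rose and 6 did not pass the threshold. Symbols were available only for genes that the study had listed on these same libraries, so these counts are no independent evidence of direction and are not comparable with the 12.0% called among all genes. The number past the threshold was 13 with the length trend removed. It was also sensitive to single fish, with 12, 9 and 5 genes past the threshold without wild-type library 42, 44 or 45, and 4 and 11 without sponge-29 library 47 or 49. In the same fits the calls among all genes were 1153, 886, 427, 441 and 990, against 2341 with all fish, so this loss was not particular to matrix genes.

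Every other identifier of the basement membrane core list was lower in sponge-29, and 6 of 7 fell by edgeR's adjusted p. Among all genes tested, 5.84% were called lower. The 7 identifiers carry 4 symbols, which are known only because the study listed these genes on the same libraries. Their count is therefore no independent evidence of direction, and basement membrane genes without a symbol could not be followed. lama4, a laminin alpha chain of vascular basement membranes, was at 9.33 ± 0.920 CPM in sponge-29 brains and 13.2 ± 0.738 CPM in wild-type brains (SD, n = 4 each), a log2 fold change of -0.50 (adjusted p = 0.0214 by edgeR). lama5, the laminin alpha chain that partners lamc1 in many adult trimers, has 2 identifiers. The longer one, of 10295 bases, was at 42.4 ± 3.20 CPM in sponge-29 brains and 58.6 ± 1.41 CPM in wild-type brains (log2 fold change -0.47, adjusted p = 0.0114 by edgeR) and passed the threshold without each of the 8 libraries. The shorter one, of 1530 bases, had a log2 fold change of -0.81 (adjusted p = 0.0193 by edgeR). Perlecan (hspg2) has 3 identifiers, with log2 fold changes of -0.67, -0.57 and -0.55 (adjusted p = 0.0186, 0.0295 and 0.0247 by edgeR). Identifiers with the same symbol may be copies or pieces of one gene, and reads may be shared between them. lamc3, a laminin gamma chain like lamc1, was at 8.96 ± 4.43 CPM in sponge-29 brains and 21.0 ± 2.82 CPM in wild-type brains and did not pass (log2 fold change -1.23, adjusted p = 0.0640). With the length trend removed, 5 of these 7 identifiers were past the threshold. The calls of lama4 and of 2 hspg2 identifiers held in 4 of the 8 fits with a library left out, and those of the shorter lama5 and the other hspg2 identifier in 6.

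The 2 partners of fras1 in its list, frem2b and npnt, had values in the same direction. Other partners were not followed, so nothing is said of the complex as a whole. frem2b, which encodes a protein that assembles with FRAS1 in mammals, fell to 27.6 ± 3.18 CPM in sponge-29 brains, against 39.4 ± 1.63 CPM in wild-type brains (SD, n = 4 each), with a log2 fold change of -0.51 (adjusted p = 0.0137 by edgeR) and a call without each of the 8 libraries. npnt, nephronectin, a basement membrane ligand of integrins, was at 25.6 ± 5.97 CPM in sponge-29 brains and 35.0 ± 2.06 CPM in wild-type brains with overlapping groups (log2 fold change -0.45, adjusted p = 0.0732). With the length trend removed, frem2b, of 13925 bases, had a log2 fold change of -0.30 and was just past the threshold (adjusted p = 0.0487 by edgeR). In that fit npnt did not pass (adjusted p = 0.106 by edgeR). Per length, frem2b (1.96 RPKM in sponge-29 and 2.86 RPKM in wild-type) was somewhat below fras1 in both groups.

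Genes that anchor cells to the basement membrane did not move as one. itgb4, the integrin beta chain of hemidesmosomes, rose to 107.3 ± 6.63 CPM in sponge-29 brains, against 76.8 ± 12.6 CPM in wild-type brains (log2 fold change 0.48, adjusted p = 0.0342 by edgeR). pomgnt1, an enzyme that glycosylates the laminin receptor dystroglycan, rose to 122.8 ± 4.97 CPM in sponge-29 brains, against 77.1 ± 13.5 CPM in wild-type brains (log2 fold change 0.67, adjusted p = 0.0138 by edgeR), and this call held without each of the 8 libraries. bcar1, an adaptor of integrin signalling, fell by 0.48 on the log2 scale (adjusted p = 0.0167 by edgeR). col17a1b, a hemidesmosomal collagen, had a log2 fold change of -0.51 that did not pass (adjusted p = 0.0584). The rise of itgb4 held in 1 and the fall of bcar1 in 6 of the 8 fits with a library left out.

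In the interstitial matrix, 3 of 5 genes fell and 1 rose by edgeR's adjusted p. Among all genes tested, 5.84% were called lower and 12.0% in either direction. These 5 genes too have symbols only because the study listed them on these libraries, so the counts are not comparable. fn1b (fibronectin) fell by 0.48 (adjusted p = 0.0399), col6a2 (collagen VI) by 0.78 (adjusted p = 0.0447) and col27a1a (a fibrillar collagen) by 0.55 on the log2 scale (adjusted p = 0.0354 by edgeR), but these calls held in no more than 2 of the 8 fits with a library left out, and 1 of the 3 genes, col27a1a, had groups that did not overlap. With the length trend removed none of the 3 passed (adjusted p = 0.128, 0.0665 and 0.0583 by edgeR). ctgfa, which encodes a matricellular protein, went in the other direction, at 32.1 to 103.9 CPM in sponge-29 fish and 5.65 to 9.99 CPM in wild-type fish (log2 fold change 2.79, adjusted p = 0.0110 by edgeR). emilin2a, an elastic fibre glycoprotein, did not pass (log2 fold change 0.47, adjusted p = 0.0702).

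The neural matrix was likewise divided. acanb (aggrecan, a proteoglycan of perineuronal nets) was at 239.4 ± 29.7 CPM in sponge-29 brains and 166.5 ± 18.3 CPM in wild-type brains, and hapln4 (a link protein of the same nets) at 37.1 ± 4.40 CPM in sponge-29 brains and 25.5 ± 1.84 CPM in wild-type brains. Both rose, with log2 fold changes of 0.52 and 0.54 (adjusted p = 0.0233 and 0.0152 by edgeR). RELN (2 of 2), a copy of the secreted guidance protein reelin, fell by 0.55 on the log2 scale (adjusted p = 0.0312 by edgeR). bcan (brevican), at 454.8 ± 87.1 CPM in sponge-29 brains and 648.4 ± 107.4 CPM in wild-type brains, did not pass (log2 fold change -0.51, adjusted p = 0.0612). Among enzymes that remodel the matrix, mmp17a and adamts18, both metalloproteinases, fell by 0.44 and 0.39 on the log2 scale (adjusted p = 0.0269 and 0.0279 by edgeR), HYAL4, named as a hyaluronidase, rose by 0.67 (adjusted p = 0.0306), and tgm2b, a transglutaminase, had a log2 fold change of 0.60 (adjusted p = 0.0879). With a library left out, the calls of acanb and hapln4 held in 5 and 6 of the 8 fits, those of RELN (2 of 2) and adamts18 in 3, and those of mmp17a and HYAL4 in 2. With the length trend removed, RELN (2 of 2), mmp17a and adamts18 no longer passed (adjusted p = 0.0662, 0.0605 and 0.055 by edgeR), while acanb, hapln4 and HYAL4 did.

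**Figure D5:**
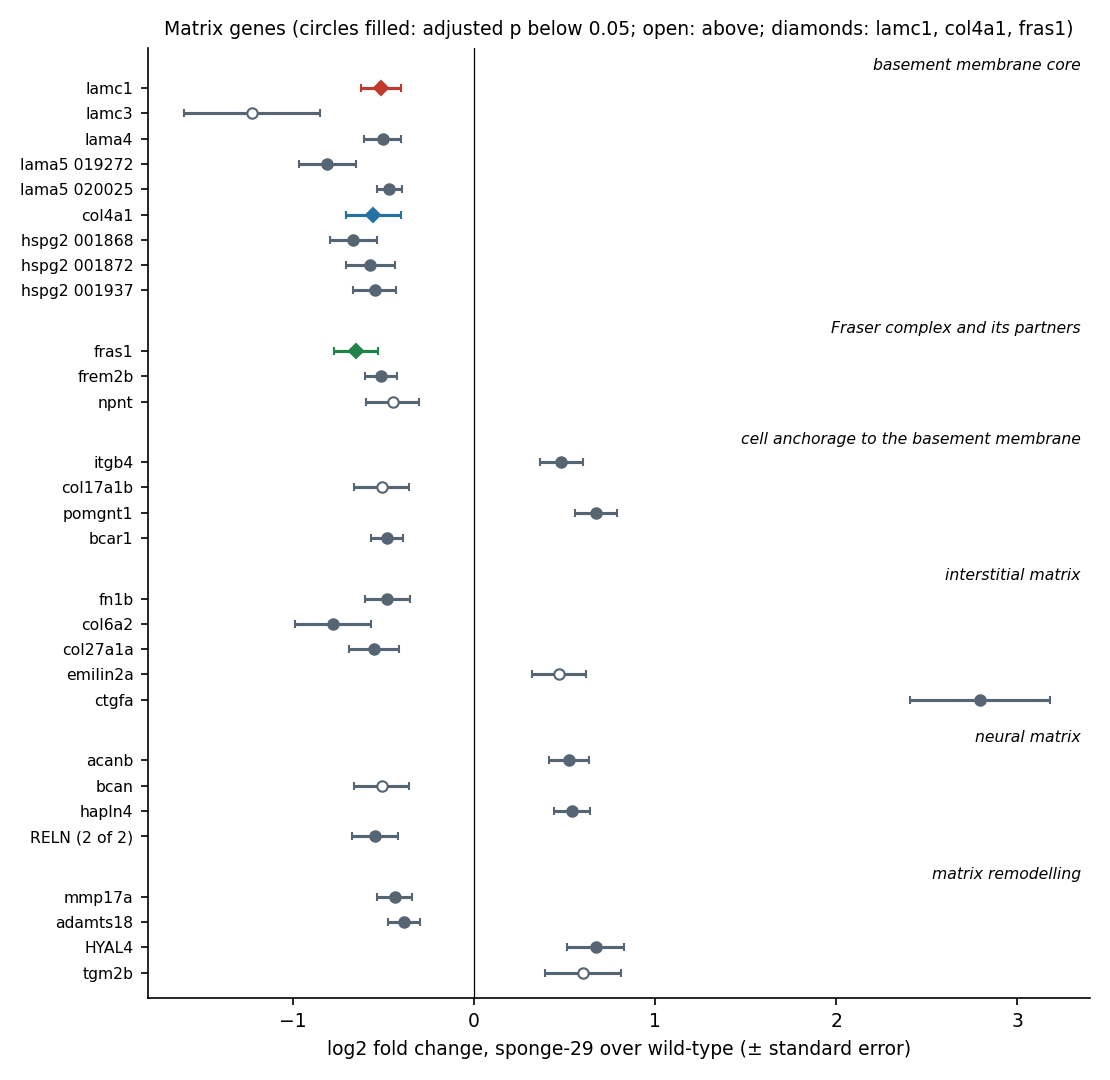
log2 fold change (sponge-29 over wild-type) with its standard error for 29 identifiers in 6 lists of matrix genes. Diamonds are lamc1, col4a1 and fras1; circles are filled where edgeR's adjusted p was below 0.05 and open otherwise, and numbers after hspg2 and lama5 end their identifiers. All points of the basement membrane core list and of the Fraser complex list lie left of 0, and the other 4 lists hold points on both sides.

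Markers of other cells of the brain differed between the groups as well, and their part in the lower levels of lamc1, col4a1 and fras1 was not tested. These markers too have symbols only because the study listed them on these libraries. Endothelial markers, whose cells lie on the vascular basement membrane, summed to 113.7 to 139.7 CPM in sponge-29 fish and 142.5 to 197.6 CPM in wild-type fish over 7 identifiers. Of these, eltd1, slco1c1 and 1 of the 2 identifiers of ptprb fell and tspan18b rose by edgeR's adjusted p. Among all genes tested, 12.0% were called in either direction and 5.84% were called lower. The other ptprb identifier, with the highest level of the list, was at 44.3 ± 7.06 CPM in sponge-29 brains and 65.4 ± 14.1 CPM in wild-type brains. Its groups overlapped and it did not pass (adjusted p = 0.0592 by edgeR). ESM1 (log2 fold change 0.43) and PDGFB (1 of 3) (log2 fold change -0.58) did not pass either (adjusted p = 0.0627 and 0.054 by edgeR). slco1c1, a transporter of the blood-brain barrier, fell to 15.6 ± 1.59 CPM in sponge-29 brains, against 24.0 ± 2.28 CPM in wild-type brains (log2 fold change -0.62, adjusted p = 0.0132 by edgeR), and held without each of the 8 libraries. The falls of eltd1 and of the ptprb identifier that was called each held in 2 of these 8 fits. That ptprb identifier did not pass with the length trend removed (adjusted p = 0.0706 by edgeR).

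The summed levels of the other marker lists were higher in sponge-29 fish, without overlap between the groups. Of the 19536 genes tested, 1201 were called higher, but the study chose these markers on the same libraries, so their counts are not comparable with that number. Median gene length was 1281 bases for mural cell, 1365 for neuron, 1452 for glia and 2034.5 for meningeal and choroid plexus markers. It was 2654 bases over all genes tested, and the bin of 1084 to 1536 bases had a median log2 fold change of 0.05. Mural cell markers (myl9b and gucy1a3, of which 1 rose by edgeR's adjusted p) summed to 60.0 to 77.4 CPM in sponge-29 fish and 47.5 to 55.0 CPM in wild-type fish. The 4 meningeal and choroid plexus markers, of which mrc1a and colec12 rose, summed to 5656 to 8051 CPM in sponge-29 fish and 1778 to 4829 CPM in wild-type fish, most of it from epd (ependymin), which did not itself pass (adjusted p = 0.0693 by edgeR). Neuron markers, of which 4 of 5 rose, summed to 866.0 to 972.2 CPM in sponge-29 fish and 608.0 to 757.2 CPM in wild-type fish, and the 3 glia markers, which all rose, to 488.5 to 523.9 CPM in sponge-29 fish and 256.0 to 405.6 CPM in wild-type fish. KCNJ10 (1 of 2), which supplied most of the glia sum, held its call in 1 of the 8 fits with a library left out and did not pass with the length trend removed (adjusted p = 0.0781 by edgeR), with library totals alone, without the filter or with limma, and sox10 held in 3. No marker was at 0 in any fish, and neuron and glia markers were present in all 8 libraries. In the neural matrix list, acanb and hapln4 were higher in sponge-29, and RELN (2 of 2) and bcan were lower. The sums of these few markers are therefore not read as a rise of neuron or glia genes as a whole.

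Finally, the genes most like the 3 basement membrane genes across fish were sought among 19533 other genes. Likeness was measured as the root mean square difference, over the 8 fish, between a gene's log2 CPM relative to its wild-type mean and the mean profile of the 3 genes. The mean profile was -0.61, -0.58, -0.45 and -0.64 in the sponge-29 fish of libraries 46 to 49, against -0.05, -0.24, 0.22 and 0.07 in the wild-type fish of libraries 42 to 45. The 5 closest genes with a symbol were ZNF628 (0.05), btbd7 (0.05), tbc1d25 (0.06), ppfia2 (0.07) and diexf (0.08), and the closest without a symbol were Nfu_g_1_005092 and Nfu_g_1_017320 (0.08 and 0.09), while the median over all genes was 0.49. lamc1 itself was 0.07 from the mean profile, fras1 0.14 and col4a1 0.16. Between the 3 genes the distance was 0.15 for lamc1 and fras1, 0.20 for lamc1 and col4a1, and 0.30 for col4a1 and fras1. None of the closest 5 belongs to the matrix lists. Those lists hold only 26 of the 19533 genes compared, so nothing is read from this. ZNF628 was closer to the mean profile than any of the 3 genes that make it up. Since values are set relative to the wild-type mean, the difference between the groups enters this distance. The log2 fold changes of the closest 5 were -0.61, -0.58, -0.59, -0.51 and -0.62 in the order named. A small distance therefore does not by itself show that genes varied together between fish of one group.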

How the data were processed

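RNA-seq was performed on total brain RNA of 4 sponge-29 and 4 wild-type fish with Illumina's TruSeq RNA library kit v2. Per the labels, the submitters' processing notes name bcl2fastq 1.8.4, TopHat2 2.0.6 and featureCounts 1.4.3-p1. Reads were mapped to the N. furzeri genome. The name of its build, the strand setting and the handling of reads with several matches are not given in the sources used here. The authors deposited raw counts per gene and, in a second table, RPKM values of the same genes, scaled by the authors to gene length and read number. All columns belonged to mapped libraries (0 did not). Length is counts over RPKM and was known for 23134 genes.

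Counts were analysed as deposited in R 4.3.3 with edgeR 4.0.16 (filterByExpr with a minimum count of 10, TMM, quasi-likelihood F-test, Benjamini-Hochberg adjustment over 19536 genes, threshold 0.05). p-values of this test set the difference between the groups against the spread between fish within groups. They cannot tell genotype from depth, which moved with the group, or from library preparation, for which the labels name no batch or date. log2 CPM used a prior count of 2. The fits were tested on simulated data. The following alternatives were run: the likelihood ratio test of edgeR, DESeq2 1.42.0, RLE factors, library totals alone, no filter, limma 3.58.1 on log2(RPKM + 0.1), removal of each library's length trend (spline with 4 degrees of freedom), TMM on 3387 long genes and leaving out each library.

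The named genes are the 3 chosen genes, every member of the matrix and marker lists, and the 5 genes with a symbol (at most 2 without) nearest to their mean profile. The genes and lists were chosen with earlier results of these data known. Since 0 identifiers were found in RefSeq's gene table, symbols were taken from the supplementary tables, which name 1418 identifiers, and positions and sequences are not used here.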

Additional observations from a re-analysis of the deposited data

Results flagged for a closer look

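None of the 6 groups of fish of lamc1, col4a1 and fras1 (0 groups) held a fish far from the rest. Among the other listed genes and these 3, 114 groups of 4 fish were examined, and in 5 groups the gap of 1 fish to the nearest other fish as a share of the range exceeded the critical value of Dixon's test. Chance alone gives about 1 such group in 20. The 5 fish were the following.

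Sponge-29 library 46 had 104.0 CPM of ctgfa, against 32.1 to 40.1 CPM in the other sponge-29 fish. Sponge-29 library 49, the lowest of its group for lamc1 and fras1, had 30.6 CPM of bcar1, against 37.3 to 38.3 CPM. Sponge-29 library 48 had 11.5 CPM of HYAL4, against 14.9 to 15.6 CPM. Wild-type library 43, the lowest wild-type fish for all 3 basement membrane genes, had 58.0 CPM of itgb4, against 81.5 to 84.8 CPM in the other wild-type fish, and 73.1 CPM of fn1b, against 96.5 to 99.2 CPM.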

How the results depend on the processing

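The log2 fold changes of lamc1, col4a1 and fras1 kept their sign under all 16 alternatives. Removing the length trend took that of fras1 to -0.45. Without single libraries they ranged from -0.60 to -0.45 for lamc1, -0.64 to -0.42 for col4a1 and -0.74 to -0.56 for fras1, and under the other choices from -0.55 to -0.39, -0.59 to -0.43 and -0.68 to -0.45. The number of genes called, 2341, was 3784 with DESeq2 and 1529 with the length trend removed, and 427 to 2125 without single libraries. The 20 matrix genes called became 13 with the length trend removed and 4 to 20 without single libraries. Fewer fish entered the fits without a library; the cause of the other changes was not tested. Calls were 1201 higher and 1140 lower as reported, 886 higher and 1428 lower with library totals alone, 972 higher and 557 lower with the length trend removed, and 620 lower of 3470 with TMM on long genes. Of 864 alternative values for 54 other identifiers, 677 stayed on their side of the threshold, 145 lost a call, 42 gained one and 0 changed sign. No paired analysis was possible because replicate numbers were given here in accession order and tie no fish of one group to a fish of the other. Counting error is larger in genes of low count. Levels of miR-29, of the sponge transcript and of the proteins were not analysed here.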
